A study of Mus musculus with 11 samples.

Results

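Snai1, Snai2, Twist1 and Twist2, the genes of the Snail and Twist families of transcription factors that drive epithelial-mesenchymal transition (EMT), were described in RNA-Seq data of mouse mammary tumor cell lines. The members were the rows of the deposited table that carry these gene names, which gave 4 of 4461 genes. The table held 6 cell lines grown from mammary tumors of female NIC mice on the FVB/N background, in which the MMTV promoter, active in mammary epithelium, drives an oncogenic ErbB2 together with Cre recombinase. The 4 lines KO_1922, KO_1925, KO_2768 and KO_4258 carried the label NIC/conditional Cpt1a KO, here called KO lines, and the 2 lines WT_5257 and WT_8905 the label NIC/wild-type, here called WT lines. Both groups carried the NIC transgene and neither was treated. Cpt1a is the mitochondrial enzyme that admits long-chain fatty acids to oxidation, and its deletion by the same Cre is meant to reach the mammary epithelium alone. Each line had duplicate libraries except KO_2768, which had 1, so 7 KO and 4 WT libraries were read. Titles of the samples word the alleles the other way round, and groups were taken from the genotype field. Cpt1a and Erbb2 were not analysed here, so the labels were not checked against the deleted gene.

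Snail proteins (Snai1, or Snail, and Snai2, or Slug) are zinc finger repressors that bind E-box sequences in the promoters of epithelial genes such as E-cadherin. Twist proteins are basic helix-loop-helix (bHLH) factors that bind E-boxes as dimers with E proteins. In the mammary gland, Slug is known from basal cells, and Snail and Twist from the invasion and spread of carcinoma cells.

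The table lists only genes that passed the authors' own comparison of the genotypes, so each of these genes was selected on the same libraries, and p-values computed here are too small. The level of a gene is given as FPKM, fragments per kilobase of gene length scaled to the total reads of the library, and the level of a line pools the reads of its libraries. Library totals recovered from the table ran from 18247312 to 25386785 reads in KO libraries and from 15199378 to 17372643 in WT libraries. Every KO library was deeper than every WT library, so depth and genotype cannot be told apart. Of the markers of other cell types, the listed fibroblast genes (4 of 13 on the list, Dcn, Pdgfrb, Col1a2 and Thy1) summed to 744 FPKM in KO_2768, to between 1.00 and 2.04 in KO_1922 and KO_1925, and to 0 in KO_4258, with all 4 at 0 there. In the WT lines they summed to at most 0.0169. Csf1r, the only listed gene of 15 leukocyte markers and the receptor of a macrophage growth factor, stood at 64.5 FPKM in KO_4258 and at 3.74 or lower in every other line. The listed luminal markers (4 of 20, Csn3, Elf5, Prlr and Lalba) summed to between 15.6 and 222 FPKM in KO lines and between 4003 and 5054 in WT lines. Csn3, a casein gene, made up most of the WT sums, at 4948 and 3895 FPKM, and stood between 0.472 and 191 in KO lines. Elf5 averaged 21.0 FPKM in KO and 91.3 in WT lines, and Prlr 10.6 and 15.2. Of the basal markers, 4 of 13 were listed (Krt17, Acta2, Tagln and Oxtr) and summed to between 1.46 and 10.2 FPKM in KO lines and to 4.95 and 14.1 in WT lines. Krt17, a basal keratin, was between 0.734 and 7.16 FPKM in KO lines and at 0.0195 or lower in WT lines, and was called raised (edgeR, adjusted p = 0.0484). The basal markers went both ways, 2 with a positive and 2 with a negative log2 fold change. Acta2 averaged 0.785 FPKM in KO and 0.0255 in WT lines, Tagln 1.46 and 3.31, and Oxtr 0.543 and 6.20, none of them called. The listed pericyte genes (3 of 7, Notch3, Abcc9 and Rgs5) summed to between 3.94 and 5.38 FPKM in KO lines and between 16.6 and 23.7 in WT lines. Nearly all of this was Notch3, a receptor of the Notch pathway, at 3.91 to 5.34 FPKM in KO lines and 16.4 and 23.3 in WT lines. Notch3 was called lowered (edgeR, adjusted p = 0.0220). Abcc9 was also lower in every KO line, while Rgs5 went the other way, at 0.0196 to 0.199 FPKM in KO lines and 0 in WT lines. Fabp4, the only listed gene of 7 adipocyte markers, was between 0.720 and 3.40 FPKM in KO lines and at 0.190 or lower in WT lines, and Eng, the only one of 10 endothelial markers, between 0.364 and 0.763 and between 0.198 and 0.313. The part of these markers in the levels described here was not tested. Krt8, Krt18, Epcam and Cdh1, which define luminal epithelium, were not analysed here. In bulk libraries, fewer cells of a type and less RNA per cell cannot be told apart.

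The promoters of Snai1 and Twist1 are shown because the KO lines stood on opposite sides of the WT lines for these genes on the FPKM scale and because Snail and Twist proteins bind E-boxes. The 250 bases before the annotated start (RefSeq, GRCm38.p6, 5′ to 3′, plus strand) are those of Snai1 at chr2:167537945-167538194 and Twist1 at chr12:33957421-33957670. Capitals mark every CANNTG, the general E-box, which reads the same on both strands.
Snai1: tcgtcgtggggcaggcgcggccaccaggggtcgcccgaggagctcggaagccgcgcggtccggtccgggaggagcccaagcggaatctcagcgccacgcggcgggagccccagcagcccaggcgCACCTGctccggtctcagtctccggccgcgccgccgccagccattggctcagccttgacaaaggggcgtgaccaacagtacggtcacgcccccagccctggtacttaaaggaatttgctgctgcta
Twist1: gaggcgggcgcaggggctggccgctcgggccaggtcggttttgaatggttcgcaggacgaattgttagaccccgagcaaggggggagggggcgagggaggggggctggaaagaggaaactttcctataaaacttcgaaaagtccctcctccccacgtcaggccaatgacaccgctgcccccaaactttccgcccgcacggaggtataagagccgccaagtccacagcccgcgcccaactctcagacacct
The Snai1 window held 1 E-box, CACCTG, which starts 126 bases before the start of the gene and has the letters that Snail zinc fingers are known to prefer. No CANNTG stood in the windows of Twist1 or Twist2, and the window of Snai2 was not among the sequences used. CACCTG or its reverse complement CAGGTG was found in 17.1% of 27025 promoter windows of this length, and CANNTG, which includes them, in 66.0%. The match is a description of letters and not of binding.

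Twist1 (ENSMUSG00000035799, chr12:33957671-33959817, plus strand, 2 exons) was the most abundant of the 4 genes and was lower in every KO line than in both WT lines. It stood at 15.3 FPKM in KO_1922, 14.8 in KO_1925, 17.0 in KO_2768 and 14.9 in KO_4258, and at 29.0 in WT_5257 and 28.0 in WT_8905. The read counts behind these levels were between 413 and 696 per KO library and between 698 and 830 per WT library. The KO lines averaged 15.5 ± 1.03 FPKM (SD, n = 4) and the WT lines 28.5 ± 0.721 (SD, n = 2), a WT level 1.84 times that of KO. In edgeR's quasi-likelihood test by cell line the log2 fold change was -1.02 with an SE of 0.17 (adjusted p = 0.0399 over the 4278 listed genes tested). Of the 4 genes, Twist1 alone passed this test, against 6.8% of all tested genes lowered and 2.31% raised. With every line lower it was among 36.7% of tested genes. The call was lost with adjustment over 20000 genes (adjusted p = 0.186), without TMM scaling (0.0530) and when KO_1922 (0.118), KO_1925 (0.130), WT_5257 (0.145) or WT_8905 (0.0726) was left out, all in edgeR. The exact permutation test over the 15 splits of 6 lines gave p = 0.0667, the smallest it allows.

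The spread of Twist1 within each genotype was small. The 4 KO lines were not called different (edgeR, adjusted p = 0.177), whereas 89.2% of tested genes were, and the WT lines gave an adjusted p of 0.847. With median-of-ratios size factors the WT lines were called different, with WT_8905 the lower by 0.18 log2 units (edgeR, adjusted p = 0.0469). All 8 contrasts of a KO with a WT line passed, and none of the 6 contrasts between KO lines did, the lowest adjusted p being 0.0518 for KO_1925 against KO_2768. The shares of tested genes called against WT_5257 were 93.8% in KO_1922, 94% in KO_1925, 86.6% in KO_2768 and 87.5% in KO_4258. Against WT_8905 they were 88.6%, 88.2%, 80.7% and 84.5% in the same order. Between KO lines they were 44.9% for KO_1922 with KO_1925, 61% and 64.6% for these with KO_2768, and 71.9%, 72.8% and 72.3% for KO_1922, KO_1925 and KO_2768 with KO_4258. Between the WT lines 61.3% were called. The single library of KO_2768 is assumed to vary like the others. The duplicates did not all vary alike. Their mean chi-square against counting error was 9.27 in KO_4258 and between 2.12 and 3.10 in the other lines with duplicates. The correlation of log2 CPM between duplicates was 0.994 to 0.995 in each of these lines. The titles call the duplicates of a line biological replicates without saying whether they were separate cultures.

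Most tested genes on chromosome 12, which carries Twist1, were lower in KO lines as Twist1 was. Of the 240 tested genes on this chromosome, 15.4% had a positive log2 fold change, against 58.4% of all tested genes. Their median log2 fold change was -1.01, next to the -1.02 of Twist1, while the median of all tested genes was 0.41. The KO lines were all below the WT lines in 70.8% of these 240 genes, against 36.7% of all tested genes. Of the 240, 16.2% were called lowered, against 6.8% of all tested genes. Genes of chromosome 12 that did not pass the authors' comparison are not in the table. The shares with a positive fold change were 45.4% on chromosome 2 (Snai1), 41.2% on chromosome 16 (Snai2) and 78.4% on chromosome 1 (Twist2). The chromosomes were examined after the values of the 4 genes were seen, and their part in the result was not tested. DNA copy number was not analysed here.

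**Figure D1:**
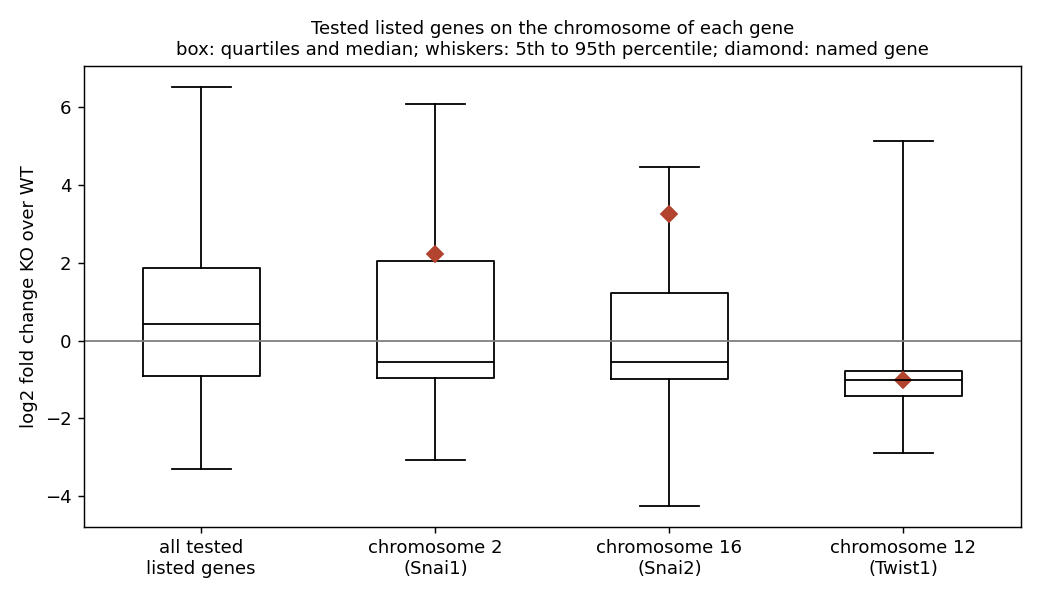
Log2 fold change of KO over WT cell lines for all 4278 tested genes and for those on chromosomes 2, 16 and 12 (y axis; box, quartiles and median; whiskers, 5th to 95th percentile), with Snai1, Snai2 and Twist1 as diamonds. Twist1 lies at the median of chromosome 12, and Snai1 and Snai2 lie above the medians of chromosomes 2 and 16, which are -0.56 and -0.55.

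Snai1 (ENSMUSG00000042821, chr2:167538195-167542814, plus strand, 3 exons) was higher on average in KO lines, with a wide spread within both genotypes. It stood at 9.29 FPKM in KO_1922, 7.31 in KO_1925, 6.63 in KO_2768 and 2.23 in KO_4258, and at 0.246 in WT_5257 and 2.15 in WT_8905. The lowest KO line thus met the higher WT line. The counts were between 67 and 310 reads per KO library, 5 and 8 in the libraries of WT_5257, and 55 and 60 in those of WT_8905. The KO mean of 6.37 ± 2.98 FPKM (SD, n = 4) was 5.32 times the WT mean of 1.20 ± 1.34 (SD, n = 2). The log2 fold change of 2.24 with an SE of 1.04 did not pass (edgeR by line, adjusted p = 0.118). It was 4.59 without WT_8905 and 1.39 without WT_5257. Taking each library as a sample gave an adjusted p of 0.0170 in edgeR, where 48% of the genes tested were called raised, and DESeq2 by line gave 0.0345. The exact permutation test again gave p = 0.0667, the smallest possible.

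The order of the lines for Snai1 ran from KO_1922 through KO_1925, KO_2768, KO_4258 and WT_8905 to WT_5257. KO_1922 differed from KO_1925 (edgeR by library, adjusted p = 0.0360), and KO_1925 did not differ detectably from KO_2768 (0.550). KO_4258 and WT_8905 could not be told apart, with a ratio of FPKM of 1.04 and an adjusted p of 0.935 in edgeR. Their order is that of FPKM, and on the TMM scale KO_4258 is the lower by 0.02 log2 units, so the KO lines exceed both WT lines on the FPKM scale and overlap on the other. WT_8905 was 8.72 times as high as WT_5257 (adjusted p = 2.66e-11, edgeR), a contrast in which 37.1% of tested genes were called higher in WT_8905. The KO lines also differed among themselves (adjusted p = 1.64e-15, edgeR).

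**Figure D2:**
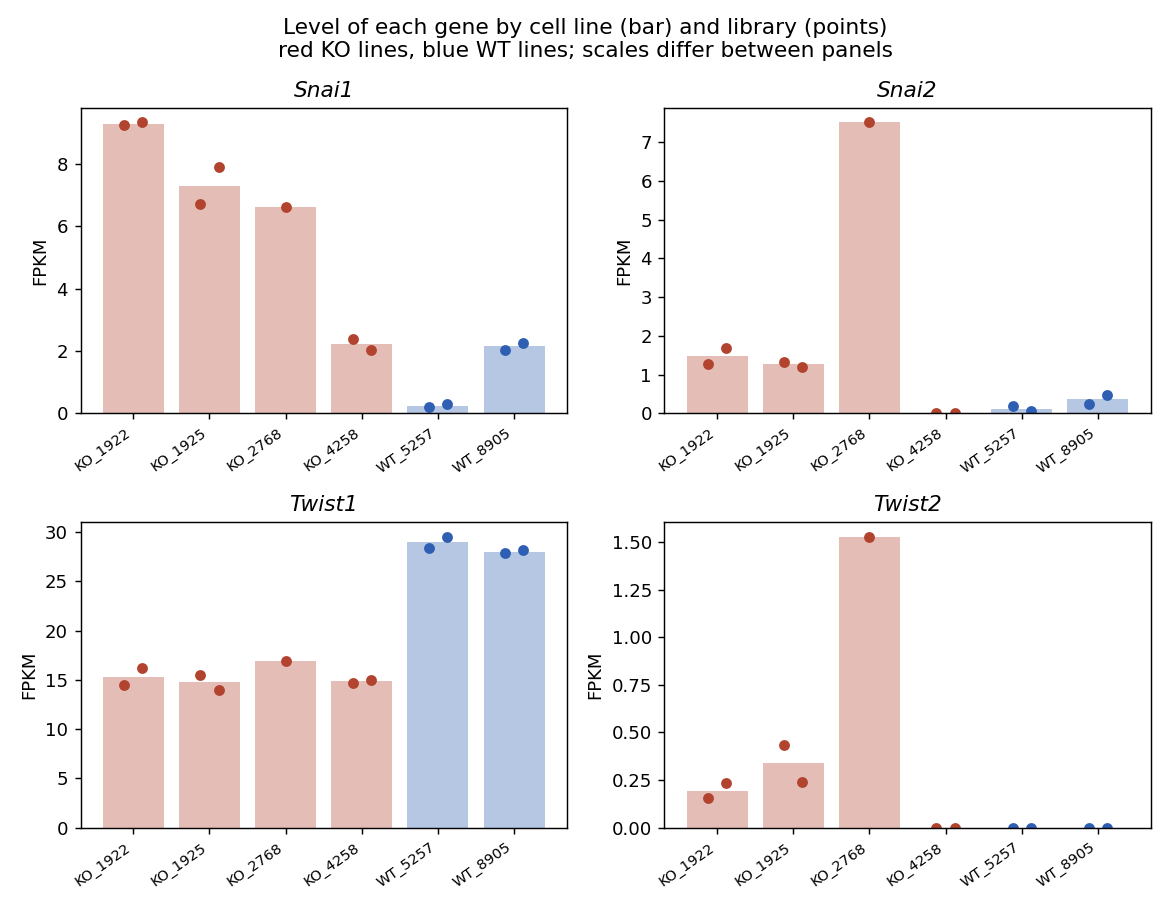
FPKM (y axis, a scale for each panel) of the 4 genes in each cell line, as bars for the pooled line and points for its libraries, KO in red and WT in blue. Twist1 lies between 14.8 and 17.0 in KO lines and at 28.0 or more in WT lines, while Snai2 and Twist2 peak in KO_2768 and stand at 0 in KO_4258.

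Snai2 (ENSMUSG00000022676, chr16:14705852-14709395, plus strand, 3 exons) was highest in one KO line and lowest in another. It stood at 1.47 FPKM in KO_1922, 1.26 in KO_1925, 7.53 in KO_2768 and 0 in KO_4258, and at 0.121 in WT_5257 and 0.358 in WT_8905. KO_2768 was thus far above every other line, and KO_4258, with 0 reads in both libraries, was below both WT lines. KO_2768 was 5.13 times KO_1922 and at least 113-fold above KO_4258, taking 3 counts per library as the floor, which covers counting error only. The log2 fold change of the genotypes was 3.25 with an SE of 2.32 and did not pass (edgeR by line, adjusted p = 0.231). Without KO_2768 the KO mean was 3.81 times the WT mean, against 10.7 with it, and the log2 fold change was 4.32 without WT_8905 and 2.66 without WT_5257. The KO lines differed among themselves (adjusted p = 2.40e-22, edgeR). KO_1922 and KO_1925 did not differ detectably (adjusted p = 0.570), and WT_8905 exceeded WT_5257 (adjusted p = 0.0246) on 24 and 8 reads.

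Twist2 (ENSMUSG00000007805, chr1:91801461-91848028, plus strand), a close relative of Twist1, was the least abundant. No read fell on it in the 4 WT libraries or in those of KO_4258. It stood at 0.192 FPKM in KO_1922, 0.339 in KO_1925 and 1.53 in KO_2768, on 19, 32 and 98 reads. KO_2768 was at least 21.1-fold above the floor of the WT libraries, and the KO mean at least 7.09-fold. The genotype contrast did not pass (edgeR by line, adjusted p = 0.105). KO_1922 and KO_1925 were not called different (adjusted p = 0.217), while KO_2768 exceeded both (adjusted p = 1.30e-07 and 1.04e-05, edgeR). An antisense gene, RP23-5H15.1 (chr1:91798528-91802937, minus strand), overlaps the start of Twist2 and stood at 0.339 FPKM in KO_2768, 0.156 in KO_1922, 0.0546 in KO_1925 and 0 in the other lines. Whether the counts used strand was not given in the sources used here, so reads of the pair cannot be told apart.

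Of the pairs among the 4 genes, Snai2 and Twist2 had the highest Pearson's r of log2 CPM over 6 lines, 0.89, a description to which KO_2768, highest for both, and KO_4258, at 0 for both, belong. Their orders were not identical, since KO_1922 stood above KO_1925 for Snai2 and below it for Twist2. The r of Snai1 with Twist1 was -0.78. KO_2768 was the highest KO line for 31.1% of tested genes and KO_4258 the lowest for 40%, and both held for 790 of the 4278 (18.5%). The 4 fibroblast markers above were also highest in KO_2768 and at 0 in KO_4258, with Dcn, a collagen-binding proteoglycan, at 737 FPKM in KO_2768 and at 0.482 or lower elsewhere. Their part in the levels of Snai2 and Twist2 was not tested.

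By the rule of highest r over 6 lines, the genes most like Snai1 were Aloxe3, Ap3m2, Map1b, Zfpm2 and Tgm1, and those most like Snai2 were Kctd17, Gfra2, Il1r1, Scube3 and 9430020K01Rik. Those most like Twist1 were Dgkg, Med17, Orai1, Hey2 and Col28a1, and those most like Twist2 were Atoh8, Ppie, Rab3b, Fbn1 and Tbx15. Every one had an r of 0.98 or more, which the search over 4278 genes on 6 points favors. Orai1, a calcium channel subunit, stood between 5.44 and 6.89 FPKM in KO lines and at 19.2 and 19.3 in WT lines. Tbx15, a T-box factor, stood at 30.0 FPKM in KO_2768, 2.55 in KO_1925, 0.843 in KO_1922 and 0.0258 or lower in the others. The nearest listed neighbors were Slc9a8 and Gm11476 for Snai1, Abcc1 and Hic2 for Snai2, F730043M19Rik and Tspan13 for Twist1, and the antisense gene and Hdac4 for Twist2. Of them Abcc1, a drug efflux pump, passed, with a log2 fold change of 2.13 and an SE of 0.28 (edgeR, adjusted p = 0.0290).

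Of 28 EMT transcription factors on the list used, 11 were in the table and 10 were tested. Among those 10, 8 had a positive log2 fold change, 1 was called raised and 2 lowered, where 58.4% of all tested genes were positive, 2.31% raised and 6.8% lowered. Snai1, Snai2 and Twist2 are among the positive genes and Twist1 among the lowered. The counts and the median of this list are therefore not independent of the 4 genes. All calls of the genotype comparison, in this and the other lists, were lost in edgeR when KO_1922, KO_1925 or WT_5257 was left out or p-values were adjusted over 20000 genes. The median was 2.84, or 2.66 with genes at the floor set to their bound, against 0.41 for all tested genes. Fosl1, an AP-1 subunit, rose from 0.907 ± 0.748 FPKM in WT lines (SD, n = 2) to 14.5 ± 2.39 in KO lines (SD, n = 4), a log2 fold change of 3.85 with an SE of 0.68 (edgeR, adjusted p = 0.0405). Sox10, a neural crest factor also found in mammary progenitors, fell from 225 ± 13.6 to 75.2 ± 16.2 FPKM (log2 fold change -1.71, SE 0.24, edgeR adjusted p = 0.0332). Foxq1 (1.25 FPKM in WT, 12.4 in KO) and Runx2 (0.766 and 4.72) were higher in every KO line and did not pass, at adjusted p = 0.0565 and 0.0530 in edgeR. Foxc1 averaged 13.6 FPKM in WT lines and 27.3 in KO lines, with overlap. Prrx2 stood at 2.81, 4.19 and 1.50 FPKM in KO_1922, KO_1925 and KO_2768, at 0.0310 in KO_4258 and at 0 and 0.0630 in the WT lines. Foxc2, not tested, was at 0.597 FPKM in WT_5257 and at 0.0187 or lower elsewhere.

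**Figure D3:**
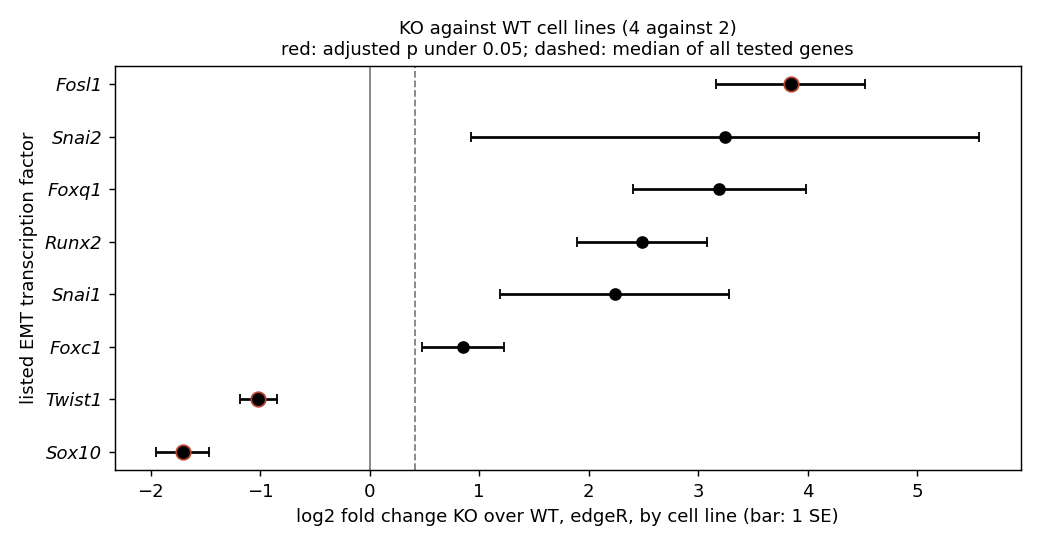
Log2 fold change of KO over WT lines (x axis; points, edgeR estimate; bars, 1 SE) for the 8 listed EMT factors that were tested and whose groups are above the floor. Fosl1, Twist1 and Sox10 are outlined in red as called, and the bar of Snai2 is the widest, at 2.32.

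Of 12 bHLH partners and Id inhibitors, 3 were listed and none was called. Id proteins bind E proteins and keep them from DNA. Id1 averaged 97.9 ± 61.0 FPKM in KO and 26.9 ± 4.42 in WT lines, but was 9.51 in KO_4258. Id3 stood between 36.7 and 51.3 FPKM in the other KO lines, at 3.18 in KO_4258, and at 0.529 and 4.88 in the WT lines. Id2 averaged 60.9 ± 32.9 FPKM in KO and 151 ± 11.5 in WT lines. Of 37 co-repressors and regulators of Snail stability, 9 were listed, 4 with a positive and 5 with a negative log2 fold change, and none was called. Limd1, a LIM-domain protein that binds Snail, and Rcor1, a co-repressor that partners Kdm1a, were lower in every KO line, with log2 fold changes of -0.80 (SE 0.18) and -1.13 (SE 0.28) and adjusted p = 0.0501 and 0.0566 in edgeR. Fbxl5, part of a ligase that marks Snail for degradation, was at 38.5 ± 4.85 FPKM in KO and 24.7 ± 2.24 in WT lines. Gsk3b, a kinase that regulates Snail stability, was at 14.2 ± 2.18 and 18.4 ± 1.30. Kdm1a, a histone demethylase recruited by Snail, was at 36.7 ± 9.51 and 21.9 ± 5.44.

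Of 47 inducers of Snail and Twist, 18 were listed, 9 with a positive and 9 with a negative log2 fold change. Those called were 3 lowered genes, where 41.6% of all tested genes were negative and 6.8% lowered. Hey1, a Notch target, fell from 110 ± 46.2 to 1.26 ± 1.22 FPKM (log2 fold change -6.60, SE 1.26, edgeR adjusted p = 0.0435). Hes1, also a Notch target, fell from 54.5 to 20.1 FPKM and Lrp6, a Wnt co-receptor, from 21.2 to 12.6 (edgeR, adjusted p = 0.0353 and 0.0498), and both are named after their values were seen. Tgfb3 averaged 22.8 ± 22.5 FPKM in KO and 131 ± 57.0 in WT lines, and Tgfbr2 31.2 ± 6.31 and 50.7 ± 22.8, without a call. Fgfr1 was also lower, at 44.2 ± 19.0 FPKM in KO and 90.3 ± 16.1 in WT lines. Rela and Smad4 went the other way. Rela averaged 38.5 ± 2.60 FPKM in KO and 28.9 ± 3.43 in WT lines, and was higher in every KO line. Smad4 averaged 38.7 ± 3.99 and 32.3 ± 2.27, with overlap. Fgfr1, Rela and Smad4 were not called either.

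Of 70 mesenchymal genes, 42 were listed and tested, 38 with a positive log2 fold change (58.4% of all tested genes), 4 called raised (2.31% of all) and 0 lowered (0 lowered also at an unadjusted p under 0.05 in edgeR, against 33.9% of all tested genes). The median was 4.78, or 4.08 with genes at the floor at their bound. All KO lines were higher than both WT lines in 13 of the 42, against 37.9% of all tested genes. The called genes were S100a4, Bgn, Itga5 and Mmp13, the last 3 named after their values were seen. S100a4, a calcium-binding protein linked to motility, averaged 5.28 ± 2.82 FPKM in WT and 581 ± 635 in KO lines (edgeR, adjusted p = 0.0484). Itga5, the fibronectin receptor subunit, was between 6.87 and 24.6 FPKM in KO lines and at 0.104 or lower in WT lines. KO_2768 was the highest KO line in 54.8% of these genes and KO_4258 the lowest in 69.0%. Lgals1 showed the latter, with 780 to 1495 FPKM in the other KO lines and 3.94 in KO_4258. Spp1, the most abundant listed gene by mean FPKM, was among the 4 with a negative log2 fold change. It averaged 867 ± 532 FPKM in KO and 2153 ± 1236 in WT lines, with overlap and without a call.

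Of 64 epithelial genes, 20 were listed, 8 with a positive and 12 with a negative log2 fold change, and 1 was called lowered, against 41.6% negative and 6.8% lowered of all tested genes. It was Grhl1, an epithelial transcription factor, which fell from 17.9 to 3.11 FPKM (edgeR, adjusted p = 0.0458) and is named after its value was seen. Elf5, the alveolar luminal factor, averaged 21.0 ± 17.0 FPKM in KO and 91.3 ± 3.60 in WT lines (adjusted p = 0.0705, edgeR), and Jup, or plakoglobin, 169 ± 40.6 and 254 ± 1.61. Lamb3, a laminin chain, went the other way, at 85.2 ± 17.7 and 20.4 ± 17.3 FPKM, without a call. Of 20 textbook targets that Snail and Slug repress, 3 were listed and none was called. Muc1, a mucin of the apical surface, averaged 0.592 ± 0.298 FPKM in KO and 2.58 ± 2.58 in WT lines, and Fbp1, an enzyme of gluconeogenesis, 0.154 ± 0.151 and 0.485 ± 0.165.

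**Figure D4:**
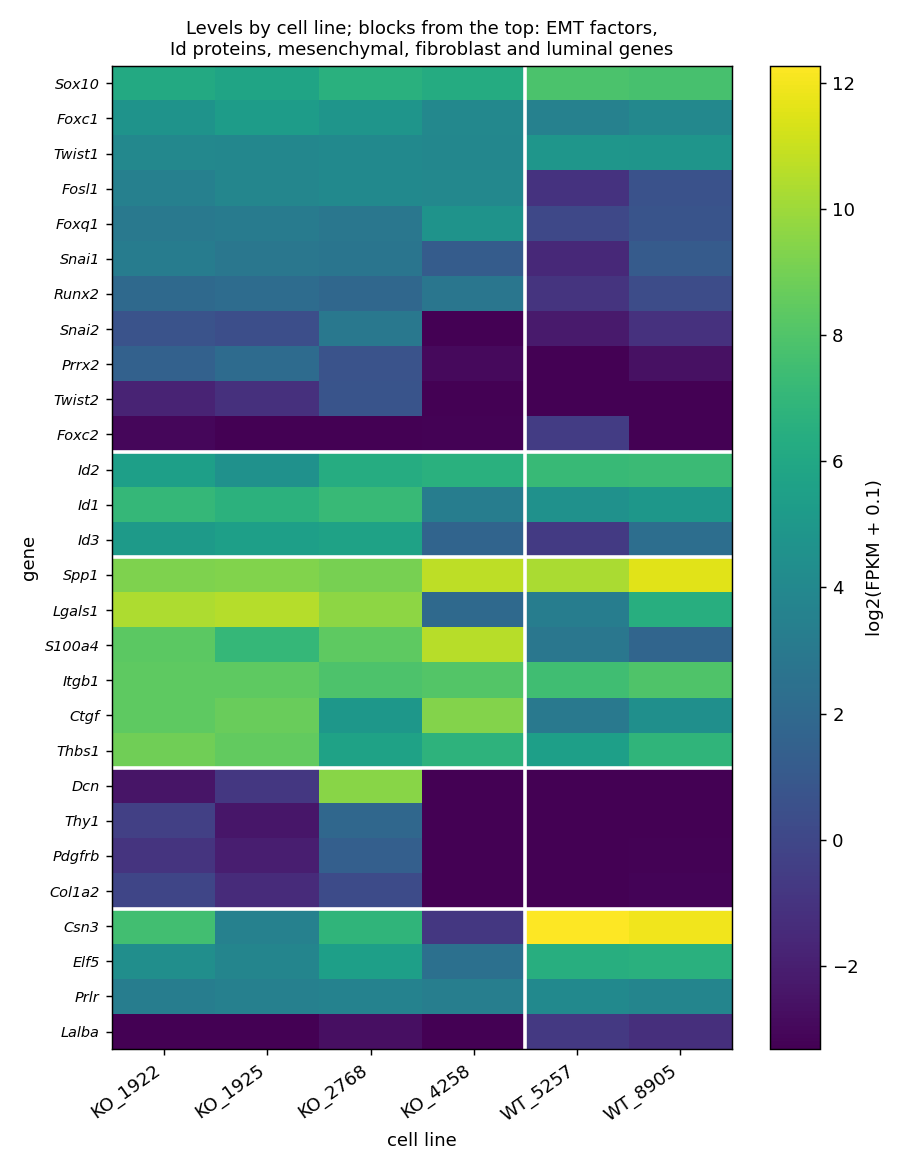
Level as log2(FPKM + 0.1) (color) of EMT factors, Id proteins and mesenchymal, fibroblast and luminal genes (rows, in blocks) in the 6 cell lines (columns, KO left of the white line). Snai2, Prrx2, Twist2 and the fibroblast genes are dark in KO_4258, and Dcn is bright in KO_2768 alone.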

How the data were processed

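Reads were trimmed with Trimmomatic, aligned to mm10 with STAR and counted per gene with HTSeq by the authors, per the labels. The authors deposited whole-number read counts, a normalized signal, in which every library's counts share 1 divisor, and FPKM. For the comparison of the genotypes the paper names DEGseq2, while the labels list edgeR and limma. The table covers the 4461 genes that passed the authors' comparison. The columns of that comparison (fold changes and p-values) were not used. Library totals were recovered from counts, gene lengths and FPKM, and listed genes held 33.3% to 34.6% of the reads.

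Counts of duplicate libraries were summed by line and tested with edgeR 4.0.16 in R 4.3.3 (TMM on all listed genes, then filterByExpr, which kept 4278, quasi-likelihood F-test, Benjamini-Hochberg over the genes tested, threshold 0.05). Lines were contrasted with the libraries as samples. The order of TMM and filter follows the design as written, and the reverse order was also run and its results seen before the text was written. Exact permutation tests were two-sided, on log2(FPKM + 0.1). Log2 CPM used a prior count of 2, and the floor was 3 counts per library. DESeq2 1.42.0 and limma 3.58.1 served as alternatives. Scripts were tested on simulated data. The members and gene lists were chosen with earlier results of these data known. Named genes were the members, every listed EMT factor, up to 6 genes of highest mean FPKM per other list, the 5 most correlated genes per member and the nearest listed neighbors. The values of 1 gene named by this rule are not reported here. Ctgf, Cyr61 and Mpp5 were taken as older names of Ccn2, Ccn1 and Pals1. Promoter sequences (RefSeq) matched 3 of 4 members. Duplicates with the same replicate letter did not deviate together (10 correlations, -0.05 to 0.04).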

Additional observations from a re-analysis of the deposited data

Results flagged for a closer look

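Among the 4 KO lines, 8 of 58 genes named from the gene and marker lists had 1 line far from the rest. Its gap to the nearest line was above Dixon's 95% critical value. The most correlated genes and the neighboring genes were not part of the 58. None of them was Snai1, Snai2, Twist1 or Twist2. Chance flags about 1 in 20 groups, and 470 of 4271 tested genes met the same criterion. In KO_4258, Foxq1 stood at 25.7 FPKM (next line 8.98), Spp1 at 1662 (636), S100a4 at 1523 (345) and Csf1r at 64.5 (3.74). The WT lines, not part of this criterion, had Spp1 at 1278 FPKM in WT_5257 and 3027 in WT_8905. In KO_2768, Dcn stood at 737 FPKM (0.482), Pdgfrb at 2.51 (0.414) and Lalba at 0.0537 (0). Lalba was at or under the floor of 3 counts per library in every KO line, so its flag rests on almost no reads. In KO_1922, Rgs5 stood at 0.199 FPKM (0.0289). Lalba and Rgs5 did not pass the filter on low counts and are not among the 4271 tested genes.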

How the results depend on the processing

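No alternative turned the direction of a KO against WT difference of Snai1, Snai2, Twist1 or Twist2. The values below are adjusted p-values or counts of genes raised and lowered, against 99 and 291 in edgeR by line. Twist1 lost its call without TMM (0.0530), with the authors' size factors (0.0601) and with adjustment over 20000 genes (0.186, 0 raised and 0 lowered, against 786 and 1452 at an unadjusted p under 0.05). The counts were 55 and 93 without TMM, 58 and 82 with the authors' size factors, 223 raised with limma on log2(FPKM + 0.1) and 273 with limma on log2(FPKM + 1). Filtering before TMM gave 148 lowered and 71 raised, and the calls of the 4 genes held (Twist1 0.0471). That order and the authors' size factors were chosen after seeing the data. The median log2 fold change of all tested genes was 0.41, 0.56 without TMM and 0.59 with the authors' size factors, and 25.4% of called genes were raised, against 37.2% and 41.4%. With each library a separate sample, edgeR called Snai1 (0.0170) and Twist2 (0.0239), with 1896 and 1691 genes. DESeq2 by line called Snai1 (0.0345) and Twist2 (0.0239), with 974 and 1446. DESeq2 by library called Snai1 (0.000824), Snai2 (0.0383) and Twist2 (0.00326), with 2393 and 1841. With the replicate block, edgeR by library gave 0.0244 for Snai1, 0.0344 for Twist2 and 1733 and 1691 genes. The replicate letters did not pair the samples, since none of 10 correlations was over 0.1. The higher WT line for Twist1 changed with median-of-ratios size factors (adjusted p = 0.0469, edgeR, against 0.847). The cause of these changes was not tested.

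Leaving out each line in turn gave 0 to 305 raised and 0 to 325 lowered genes, and adjusted p-values in edgeR of 0.0728 to 0.306 for Snai1, 0.0715 to 0.511 for Snai2, 0.0458 to 0.145 for Twist1 (0.118 without KO_1922, 0.130 without KO_1925 and 0.0726 without WT_8905) and 0.0586 to 0.289 for Twist2. Without KO_1922, KO_1925 or WT_5257 edgeR called no gene (523 raised and 968 lowered, 662 and 762, and 303 and 707 at an unadjusted p under 0.05), and without WT_8905 117 were lowered. Differences among KO lines kept their side of the threshold in every alternative run. With 2 WT lines, 1 genotype contrast and 5 to 60 Snai1 reads in WT libraries, low levels are imprecise.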
